A study of Mus musculus with 4 samples.

Results

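The genes that encode the proteins of the cytoplasmic ribosome were examined in single mouse embryos with and without Mettl14. The set held 85 of the 47885 genes in the count table. Members were the protein-coding genes whose symbol is Rpl or Rps followed by a digit, together with Rplp0, Rplp1, Rplp2 and Rpsa. Pseudogene symbols ending in -ps, the 10 Rps6k kinases and Rps19bp1 were left out. Of the members, 52 encode proteins of the large subunit (Rpl and Rplp) and 33 of the small subunit (Rps). Among them, 8 are paralogous copies that carry the name of a parent gene with an added suffix: Rpl3l, Rpl7l1, Rpl10l, Rpl22l1, Rpl36al, Rpl39l, Rps27l and Rps27rt.

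The samples were 4 whole embryos of the C57BL/6 strain at embryonic day 5.5, each sequenced as its own library. The WT group (2 embryos) carries the label Mettl14+/+ and the KO group (2 embryos) the label Mettl14-/-. Mettl14 works with the methyltransferase Mettl3 to place N6-methyladenosine on RNA, and the study asked what its loss does to the early embryo before a change of shape is visible. Genotypes were called from a qPCR of Mettl14 in the amplified cDNA once the libraries had been sequenced, so expression of the gene defined the WT embryos, and heterozygotes may not have been distinguished. The sources used here do not describe how the Mettl14 allele was made.

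Each ribosome is built from a fixed set of ribosomal RNAs and ribosomal proteins, and nearly all of the proteins are needed in equal numbers. The messages of these proteins begin with a tract of pyrimidines (C and T in the gene), the 5′ terminal oligopyrimidine or TOP motif, through which their translation is set by growth signals acting through mTOR and the binding protein Larp1. At this stage of mouse development the epiblast divides very rapidly, and ribosomal protein messages are among the most abundant in its cells. Several parent genes have copies with restricted expression, such as Rpl10l and Rpl39l in male germ cells and Rpl3l in striated muscle.

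The start regions of the parent genes and copies on which the results turn are shown here, since a pyrimidine tract near the start is the feature known for this gene family. Sequences came from the RefSeq promoter table for GRCm38.p6, in which 65 of the 85 members were matched. Capitals mark the longest run of C and T found from 10 bases before to 50 bases after the annotated start, within a window of 30 bases, 5′ to 3′ on the strand of the gene.
Rpl10: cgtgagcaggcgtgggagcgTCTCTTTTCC
Rpl10l: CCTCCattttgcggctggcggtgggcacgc
Rpl39: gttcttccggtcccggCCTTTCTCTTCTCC
Rpl39l: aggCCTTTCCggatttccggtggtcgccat
Rpl22: CCTgggaaaagcaatagctggccgatcgtt
Rpl22l1: cgcaagcccgTTCTCTTCCCacggctgcag
Rps27: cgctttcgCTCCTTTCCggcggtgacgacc
Rps27l: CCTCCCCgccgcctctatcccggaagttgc
The windows lie at chrX:74270836-74270865 (Rpl10, plus strand), chr12:66284382-66284411 (Rpl10l, minus), chrX:37085173-37085202 (Rpl39, minus), chr16:10170218-10170247 (Rpl39l, plus), chr4:152325716-152325745 (Rpl22, plus), chr3:28805499-28805528 (Rpl22l1, plus), chr3:90213629-90213658 (Rps27, minus) and chr9:66946076-66946105 (Rps27l, plus). The run was 10 bases in Rpl10 and 5 in Rpl10l, 14 in Rpl39 and 7 in Rpl39l, 3 in Rpl22 and 10 in Rpl22l1, and 9 in Rps27 and 7 in Rps27l. Within the searched bases, the parent held the longer run in the pairs Rpl10, Rpl39 and Rps27, and the copy held it in the pair Rpl22. The runs of Rpl10 and Rpl39 ended at the last base searched, and those of Rpl10l, Rpl22 and Rps27l began at the first. Those runs may extend further, so the order within pairs is not established beyond the search.

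Across the matched members, 50 of 65 (76.9%) had a run of at least 7 bases of C and T in that search window, against 32.6% of the 27025 genes in the promoter table. The annotated first base was C in 33.8% of members and in 16.2% of all genes. Many annotated starts lie upstream of the run, as in the windows of Rpl10 and Rpl39, so the first base is a coarse measure. In the whole 300-base promoter window (250 bases before the start and 50 after), on both strands, CCGGAA, the core letters of ETS-family binding sites, was found in 50.8% of members and 15.2% of all genes. AAGATGGC, the letters of the Yy1 motif, was found in 7.7% and 2.9%, and the 2 motifs can overlap by at most 2 bases. Median GC content of the window was 57.0% in members and 52.7% in all genes. These are matches of letters, with no measurement of binding. Rpl10, Rpl39 and Rpl39l held CCGGAA, while Rpl10l, Rpl22 and Rpl22l1 held neither motif.

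The WT libraries held 16108062 and 20121289 counts and the KO libraries 20248636 and 28698541. Mettl14 had 33.9 and 31.6 CPM in WT, against 4.62 and 8.03 CPM in KO, where CPM is counts scaled to the library size. Since the gene defined the groups, this checks the labels only. Over all genes tested, the Pearson correlation of log2 CPM between libraries ran from 0.879 to 0.943. Over the 85 members it ran from 0.965, between the 2 KO embryos, to 0.99, between the 2 WT embryos. By members, each KO embryo correlated less well with the other KO embryo than with either WT embryo.

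Ribosomal protein messages took up a similar part of the transcriptome in the 4 embryos. In WT the members held 7.99% of all counts in replicate 1 and 7.19% in replicate 2, and in KO they held 7.57% and 6.92%. The 95% Wilson intervals of these shares reached at most 0.013 percentage points to either side. Such intervals cover counting error only, because copies made by amplification are counted as separate reads. The groups overlapped, and replicate 1 was above replicate 2 in each group. The large subunit held 4.65% and 4.17% of WT counts, against 4.29% and 4.01% of KO counts. The small subunit held 3.34% and 3.02% of WT counts, against 3.28% and 2.91% of KO counts. Within the members' counts the large subunit made up 58.2% and 58% in WT and 56.7% and 58% in KO, a range of under 2 percentage points. After scaling between libraries by TMM (trimmed mean of M values), the summed level was 75794 and 77195 CPM in WT and 72305 and 71175 CPM in KO. On that scale both KO embryos lay below both WT embryos, whereas on library totals they did not. In whole embryos, fewer cells of a type and less RNA per cell cannot be told apart.

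No member passed the threshold of an adjusted p of 0.05 in either direction. All 85 members passed the low-count filter, and edgeR's quasi-likelihood test with Benjamini-Hochberg adjustment over 15563 genes called 0 higher and 0 lower in KO. The same test called 0% of all genes in each direction. At an unadjusted p under 0.05, 1 member was higher (Rpl10l) and 0 were lower, against 4.74% and 3.08% of all genes tested. DESeq2 called 1 member higher (again Rpl10l) and 0 lower, against 0.964% and 0.578% of all genes. With limma-voom, 0 members were called, and 0 of all 15563 genes in either direction.

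The fold changes of the members were narrow and lay slightly below 0. Their median log2 fold change, KO over WT, was -0.07, with quartiles of -0.24 and 0.00, beside a median of -0.03 for all genes tested. The sign was negative in 63 members and positive in 22. An absolute log2 fold change under 0.5 was found in 79 members (92.9%) and in 55.5% of all genes tested. Without the copies it was 75 of 77 (97.4%), and among the copies 4 of 8. An absolute log2 fold change of at least 1 was found in 2 members (2.35%), both copies, and in 21.1% of all genes. The standard deviation of log2 fold changes was 0.19 over the 77 other members and 0.82 over the 8 copies. The members were also far more abundant, with a median of 639 CPM beside 11.8 for all genes, and their median standard error was 0.27 beside 0.52. No comparison with genes of equal abundance was made.

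**Figure D1:**
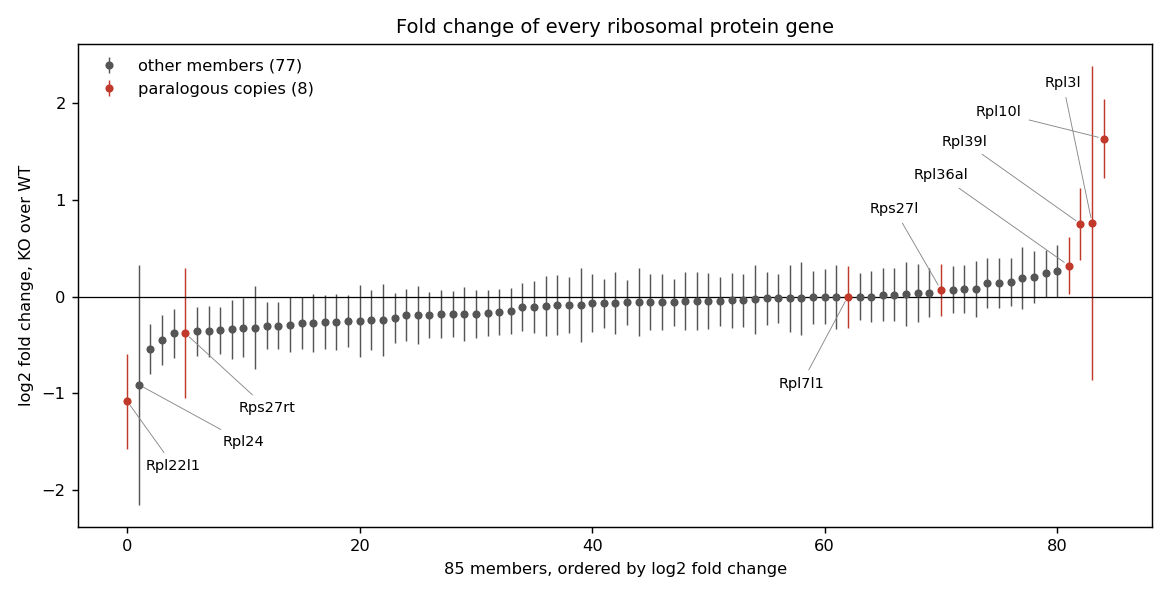
Log2 fold change, KO over WT, of each of the 85 members in order of size, with bars for 1 standard error of the edgeR fit; red points are the 8 paralogous copies. The 77 other members lie close to 0 apart from Rpl24, which had few counts, while Rpl22l1 (-1.08) and Rpl10l (1.63) stand at the ends.

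Groups of samples that did not overlap were found for 22 members. Both KO embryos lay above both WT embryos in 3 (3.53%, against 19.4% of all genes tested): Rpl10, Rpl10l and Rpl39l. Both lay below in 19 (22.4%, against 18.8%). The split of 3 and 19 became 5 and 15 on library totals, and 11 and 17 after trends with GC content and length had been removed. For those settings the share over all genes is not given, so these splits show only how far the counts move. The median log2 fold change was positive (0.05) without KO replicate 2, and lay between -0.13 and 0.00 without each of the other embryos.

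Rpl10l was the member with the largest difference. It is an intronless copy of the X-linked Rpl10 on chromosome 12 (66283379 to 66284401, mm10), known for standing in for Rpl10 in male germ cells. Its level was 54.6 and 77.8 CPM in the WT embryos and 140 and 269 CPM in the KO embryos, from raw counts of 927, 1458, 2967 and 7511. Both KO embryos lay above both WT embryos, and KO replicate 2 lay well above KO replicate 1. The fold was 3.09 (log2 1.63, standard error 0.41, n = 2 per group), with an unadjusted p of 0.00383 and an edgeR adjusted p of 0.368. The adjusted p was 0.013 with DESeq2, and over the 15 alternatives it ran from 0.00388 to 0.684. The log2 fold change was 1.09 without KO replicate 2 and 2.10 without KO replicate 1, where the adjusted p was 0.0216.

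Rpl10 itself, which joins the large subunit late in its assembly, had 1637 and 1622 CPM in WT and 1908 and 1938 CPM in KO. The KO values lay above the WT values, with a log2 fold change of 0.24 (standard error 0.24, edgeR adjusted p = 0.893). Rpl10l made up 3.23% and 4.58% of the counts of the pair in WT and 6.83% and 12.2% in KO. Its share in each KO embryo lay above both WT shares. The coding sequences of the pair, 642 bases each, are identical at 84.7% of aligned bases with a longest identical run of 23 bases, against a read length of 150 bases.

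Rpl39l, a copy of the X-linked Rpl39 known from male germ cells, also had higher values in KO. Its level was 24.6 and 35.7 CPM in WT and 49.7 and 52.0 CPM in KO. The groups did not overlap, and the KO embryos were close to each other. The log2 fold change was 0.75 (standard error 0.37, edgeR adjusted p = 0.703). Rpl39, which lines the exit tunnel of the large subunit, had 276 and 214 CPM in WT and 244 and 226 CPM in KO, with the KO values inside the WT range. Rpl39l made up 8.18% and 14.3% of the pair's counts in WT and 16.9% and 18.7% in KO. The pair shares 85% of 153 coding bases, with a longest identical run of 38 bases.

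Rpl22l1 had the lowest fold change of the members. It is a copy of Rpl22 whose message is known to be held down by the Rpl22 protein. Its level was 62.4 and 48.5 CPM in WT and 37.8 and 14.5 CPM in KO. Both KO embryos lay below both WT embryos, with KO replicate 2 the lowest. The log2 fold change was -1.08 (standard error 0.49, unadjusted p = 0.0581, edgeR adjusted p = 0.661), and it was -0.54 without KO replicate 2 and -1.85 without KO replicate 1. Rpl22 had 257 and 217 CPM in WT and 258 and 186 CPM in KO, and its groups overlapped. Rpl22l1 thus made up 19.5% and 18.3% of the pair's counts in WT and 12.8% and 7.24% in KO. Exons of Gm33051 on the opposite strand overlap 159 of its 552 transcript bases (28.8%), and the protocol does not mark strand, so reads there cannot be assigned to either gene.

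**Figure D2:**
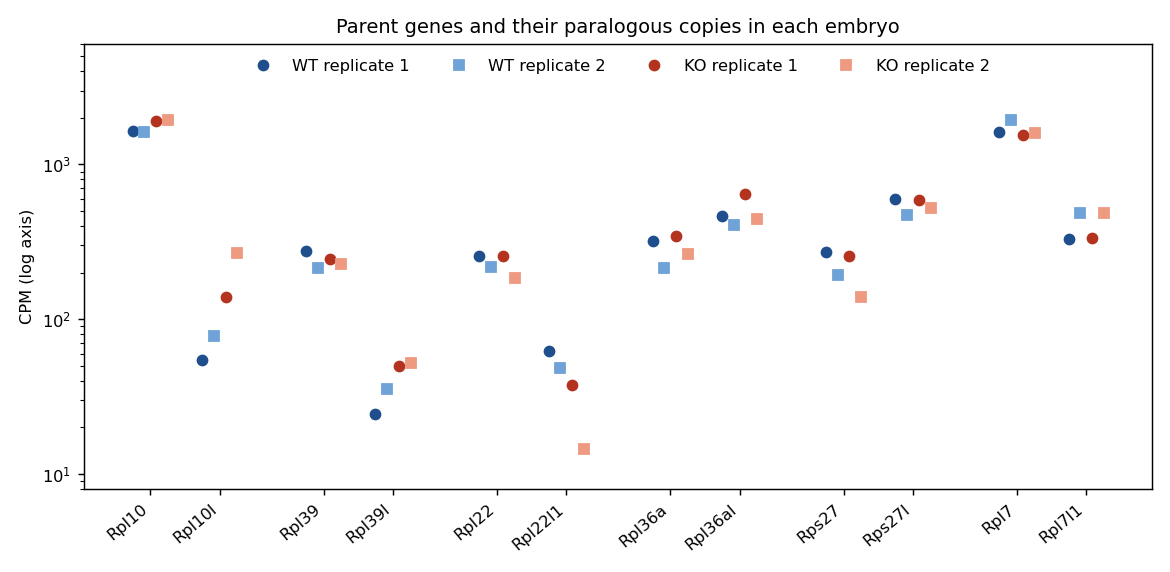
Level in CPM (log axis) of 6 parent genes and their copies in each of the 4 embryos, blue for WT and red for KO. The KO points of Rpl10, Rpl10l and Rpl39l lie above the WT points and those of Rpl22l1 and Rpl7 below them, and the points of the other 7 genes overlap between groups.

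The other copies gave no such separation. Rpl36al, an autosomal copy of the X-linked Rpl36a, had 465 and 405 CPM in WT and 640 and 446 CPM in KO (log2 fold change 0.32, standard error 0.29, edgeR adjusted p = 0.88). It was the more abundant gene of its pair in every embryo, at 59.3% and 65.3% of the pair's counts in WT and 64.9% and 62.8% in KO. Exons of Gm49383 on the same strand overlap 63.1% of its transcript. Rps27l, which is known as a p53 target, had 595 and 468 CPM in WT and 592 and 526 CPM in KO (log2 fold change 0.07). It also exceeded its parent in counts, with 68.7% and 70.8% of the pair's counts in WT and 69.9% and 79.1% in KO. The share of Rps27l in KO replicate 1 lay between the WT shares. The coding sequence of the parent Rps27 is identical to that of Rps27rt, so counts of Rps27, and these shares, are uncertain.

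Rpl7l1, a copy of Rpl7, had 331 and 487 CPM in WT and 334 and 483 CPM in KO. The levels followed the replicate number, with each replicate 2 above each replicate 1. Rps27rt, a single-exon copy of Rps27, had 6.01 and 4.86 CPM in WT and 6.27 and 2.11 CPM in KO. Its coding sequence is identical to that of Rps27 over all 252 bases, so the counts of both genes are uncertain. Rpl3l, the striated muscle copy of Rpl3, had 15 and 4 counts in WT and 1 and 50 counts in KO. Those counts overlapped between groups, and its log2 fold change of 0.76 had a standard error of 1.62. It was -3.35 without KO replicate 2.

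The P stalk binds the elongation factors and is formed by Rplp0, Rplp1 and Rplp2. Rplp0 had 3741 and 4850 CPM in WT and 3131 and 5176 CPM in KO, so the KO embryos lay on either side of the WT embryos. Rplp1 had 718 and 586 CPM in WT and 722 and 599 CPM in KO. Rplp2 had 740 and 620 CPM in WT and 736 and 610 CPM in KO. Rplp1 and Rplp2 followed each other closely, and both were higher in each replicate 1 than in each replicate 2. Rplp0 had the opposite order. Log2 fold changes of the 3 genes were -0.05, 0.02 and -0.01.

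Rpl5 and Rpl11 form the 5S particle of the large subunit with the 5S RNA, and when free they bind Mdm2. Rpl5 had 2341 and 2644 CPM in WT and 1934 and 1988 CPM in KO (log2 fold change -0.35, standard error 0.24, edgeR adjusted p = 0.815). Both KO values lay below both WT values. With GC and length trends removed, the log2 fold change of Rpl5 was -0.10. The exons of Fam69a on the opposite strand overlap 46.6% of its transcript. Rpl11 had 906 and 719 CPM in WT and 757 and 610 CPM in KO (log2 fold change -0.25), and its groups overlapped.

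Other members with a small p on the lower side included Rpl17, Rpl27, Rpl7a and Rpl6. Rpl17, near the exit of the peptide tunnel, had 686 and 728 CPM in WT and 526 and 448 CPM in KO (log2 fold change -0.54, standard error 0.26, edgeR adjusted p = 0.7). Rpl27, of the large subunit, had 959 and 824 CPM in WT and 650 and 659 CPM in KO (log2 fold change -0.45, standard error 0.26, edgeR adjusted p = 0.762). In both genes the KO values lay below the WT values. Rpl7a and Rpl6, also of the large subunit, had log2 fold changes of -0.36 and -0.30, again without overlap between groups.

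On the higher side, beside the copies and Rpl10, were Rps2, Rpl41 and Rpl36a. Rps2, of the small subunit at the messenger entry, had 2166 and 2716 CPM in WT and 2483 and 3348 CPM in KO (log2 fold change 0.26, standard error 0.27, edgeR adjusted p = 0.9). Log2 fold changes were 0.20 for Rpl41 and 0.19 for Rpl36a, and the groups overlapped for Rps2, Rpl41 and Rpl36a. The X-linked members were Rpl10, Rpl36a, Rpl39 and Rps4x. Rps4x had 1685 and 1920 CPM in WT and 1848 and 1938 CPM in KO (log2 fold change 0.07), and the 4 X-linked members had a median of 0.13.

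By subunit, 12 large subunit members had a positive and 40 a negative log2 fold change, with a median of -0.07. The small subunit had 10 positive and 23 negative, with a median of -0.06, which was 0.05 without KO replicate 2. Both KO embryos lay below both WT embryos in 10 large subunit members (19.2%) and 9 small subunit members (27.3%), beside 18.8% of all genes tested. Mutations of ribosomal protein genes cause Diamond-Blackfan anaemia in people, and 19 members belonged to a list of those genes. Of these, 17 had a negative log2 fold change, the median was -0.18, and 6 (31.6%) lay lower in both KO embryos. Their median was 0.00 without WT replicate 1 and -0.27 without KO replicate 1. Those with the smallest p were Rpl27, Rpl5 and Rps7, and Rps7, which had 1383 and 1360 CPM in WT and 1153 and 1079 CPM in KO, had a log2 fold change of -0.30. Of 10 members with described mouse mutants, 7 were negative, with a median of -0.07. None of the genes in these lists passed the edgeR threshold, which 0% of all genes tested passed.

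The order of levels was compared per kilobase of coding sequence, so that long and short genes stand on one scale. The median over the 77 members that are not copies was 1596 CPM per coding kilobase, with quartiles of 1031 and 2137. The highest were Rpl41 (10485), Rplp0 (4442), Rpl13 (3759) and Rps3a1 (3244). Rpl41 encodes the smallest ribosomal protein, with 75 coding bases in a transcript of 582, so dividing by coding length overstates its level. Rplp0, Rpl13 and Rps3a1 lay within a factor of 1.5 of each other.

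The lowest were Rpl3l (0.601), Rpl24 (2.17), Rps27rt (19.1), Rpl23a (63.7) and Rpl22l1 (111). Rpl24, a large subunit protein whose mutation gives the Belly spot and tail mouse, had 2.36 and 0.32 CPM in WT and 0.849 and 0.573 CPM in KO, from 40, 6, 18 and 16 counts. For Rpl24, 484 of 677 transcript bases (71.5%) overlap exons of Gm28037 on the same strand, and Gm28037 was listed with 0 counts in every library. Exons of Tlcd1 on the opposite strand overlap 310 of 560 transcript bases (55.4%) of Rpl23a. Low values of genes with such overlaps were not taken as low expression. In all, 18 of the 85 members share exon bases with another gene, 30 contain a snoRNA gene and 58 have a pseudogene that bears their name. Pseudogenes named after a member held 0.285% and 0.233% of the summed counts of members and pseudogenes in WT, and 0.256% and 0.206% in KO.

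The members differed between embryos of one genotype in step with their coding length. In the KO group, replicate 2 was below replicate 1 in 28 of the 29 shortest members (75 to 396 coding bases), in 26 of the 28 of middle length (399 to 576) and in 8 of the 28 longest (582 to 1257). The median log2 CPM ratios of these length classes were -0.48, -0.25 and 0.08. In the WT group, replicate 2 was below replicate 1 in 27 of 29, 21 of 28 and 12 of 28 members, with medians of -0.28, -0.20 and 0.13. Over the 85 members, the log2 ratio and the log2 coding length had a Pearson correlation of 0.63 (Spearman 0.74) in KO and 0.33 (Spearman 0.54) in WT. These correlations run across genes of the same pair of libraries, and genes are not independent replicates.

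Across genotypes the same ordering appeared with either sign, depending on which embryos were compared. KO replicate 1 was above WT replicate 2 in all but 1 of the 29 shortest members, with a median log2 ratio of 0.36 and a Pearson correlation with length of -0.68. KO replicate 2 was below WT replicate 1 in 28 of the 29, with a median of -0.46 and a correlation of 0.35. With all 4 embryos, the median log2 fold change was -0.05 in the shortest class, -0.18 in the middle and -0.09 in the longest. Depth was higher, and the share of mitochondrially encoded counts lower, in replicate 2 of each group: 1.42% and 0.889% in WT, and 1.47% and 1.06% in KO. Despite the greater depth, fewer genes had a count in replicate 2: 21488 and 19603 in WT, and 21250 and 18346 in KO. The part of these library differences in the pattern was not tested.

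**Figure D3:**
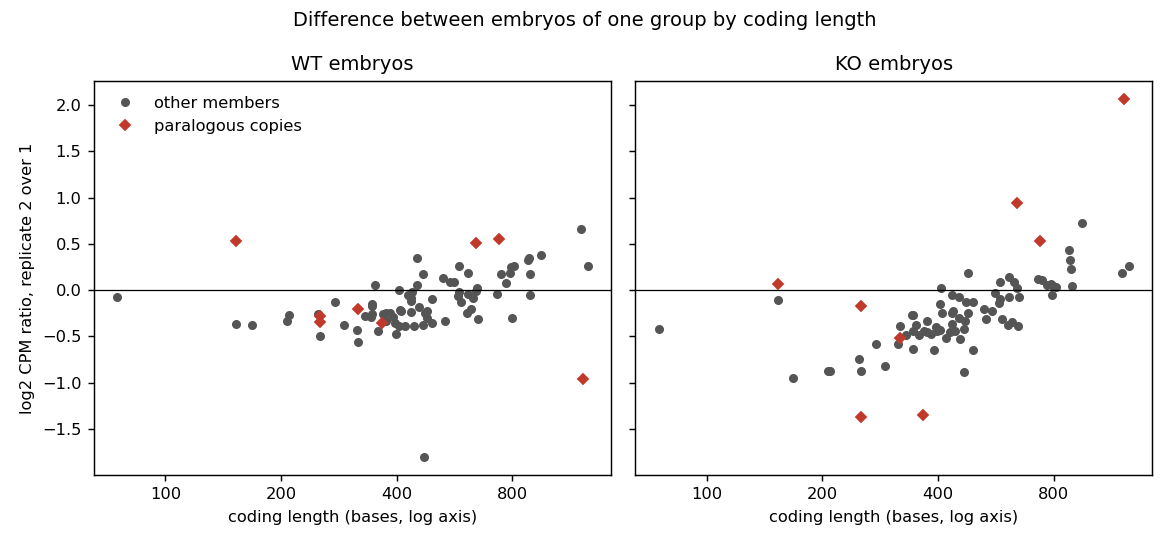
Log2 CPM ratio of replicate 2 over replicate 1 against coding length (log axis) for each of the 85 members, in the WT embryos (left) and the KO embryos (right); red diamonds are the paralogous copies. Short members lie mostly below 0 in both panels, with a median of -0.28 in WT and -0.48 in KO for the shortest class, and long members around or above 0.

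The rest of the ribosome pathway gave no call either, where the same edgeR test called 0% of all genes in each direction. The ribosomal proteins Fau and Rack1, which lie outside the symbol rule, had log2 fold changes of -0.27 and -0.20. Of 98 ribosome biogenesis genes, which process ribosomal RNA and assemble the subunits, 44 were positive and 54 negative, with a median of -0.04, which was 0.06 without KO replicate 1. In that list both KO embryos lay above both WT embryos in 17 (17.3%, against 19.4% of all genes tested) and below in 24 (24.5%, against 18.8%). Those with the smallest p in that list were Utp14a, Nat10 and Lyar, with log2 fold changes of 0.79, -0.81 and -0.59. RNA polymerase I transcribes the ribosomal RNA, and its 17 genes had a median of -0.07, which was 0.09 without KO replicate 1. Among these genes both KO embryos lay above both WT embryos in 5 (29.4%, against 19.4% of all genes tested) and below in 4 (23.5%, against 18.8%). At an unadjusted edgeR p under 0.05, 2 were higher and 0 lower, against 4.74% and 3.08% of all genes tested. Those higher were Taf1c and Twistnb, with log2 fold changes of 1.35 and 0.72. Polr1b, the second largest subunit of RNA polymerase I, had 91.7 and 105 CPM in WT and 151 and 157 CPM in KO. The KO embryos thus lay above the WT embryos for Polr1b (log2 fold change 0.65, standard error 0.31, edgeR adjusted p = 0.683). Of 5 chaperones of ribosomal proteins tested, Tsr2, the carrier of Rps26, had 91.1 and 113 CPM in WT and 130 and 221 CPM in KO (log2 fold change 0.78, edgeR adjusted p = 0.669).

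Messages outside the ribosome that also begin with the pyrimidine tract had mostly lower values in KO. Of 17 such genes, mostly translation factors, 15 had a negative log2 fold change, with a median of -0.29. Both KO embryos lay below both WT embryos in 8 (47.1%, against 18.8% of all genes tested) and above in 1 (5.88%, against 19.4%). The median was -0.16 without WT replicate 2. Their summed level was 25043 and 25568 CPM in WT and 22206 and 22218 CPM in KO. Btf3, of the nascent polypeptide complex, had 1924 and 1722 CPM in WT and 1244 and 1344 CPM in KO (log2 fold change -0.49, standard error 0.24, edgeR adjusted p = 0.706). Eif3e, a subunit of an initiation factor, had 654 and 648 CPM in WT and 497 and 428 CPM in KO (log2 fold change -0.49). Among 17 genes that control such messages, 8 were positive and 9 negative, with a median of -0.10. It was 0.09 without WT replicate 1. The smallest p was that of Mlst8, a subunit of the mTOR complexes, with 3.65 and 9.13 CPM in WT and 2.78 and 2.51 CPM in KO (log2 fold change -1.27, standard error 0.66, edgeR adjusted p = 0.735). Its KO values lay below its WT values. Tsc1, which restrains mTOR, and Eif4ebp1, a target of it, had log2 fold changes of 0.81 and 0.43. Larp1 stood at 190 and 210 CPM in WT and 248 and 259 CPM in KO (log2 fold change 0.34), and Mtor at 36.2 and 23.7 CPM in WT and 43.2 and 41.1 CPM in KO (log2 fold change 0.49). None of these genes passed the edgeR threshold, which 0% of all genes tested passed.

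**Figure D4:**
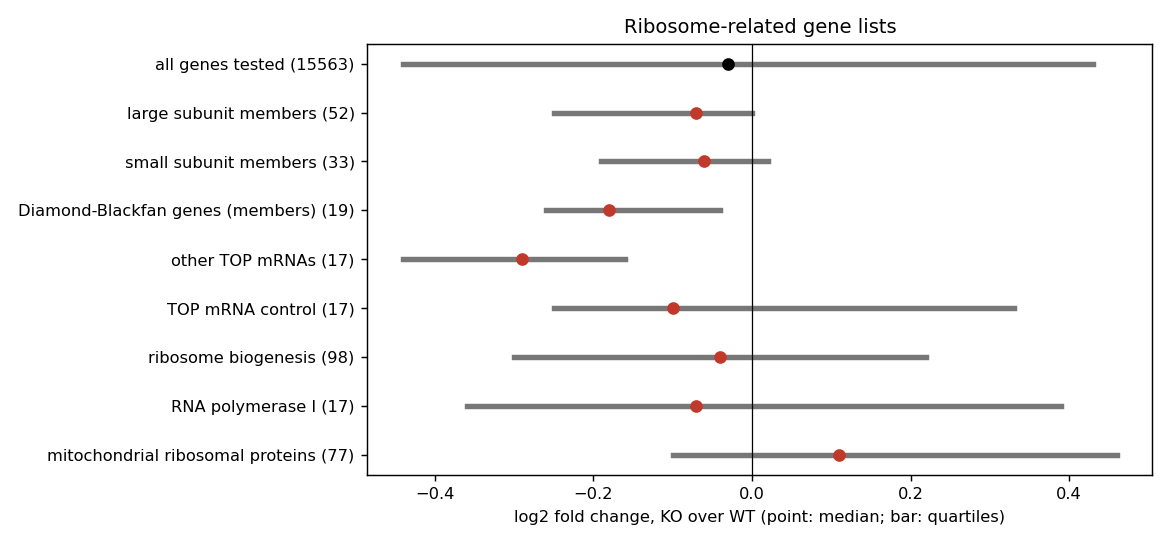
Median (point) and quartiles (bar) of the log2 fold change, KO over WT, for the members by subunit and for related gene lists, with the number of genes tested in brackets. The bars of the 2 subunits are narrow and lie near 0, the other TOP messages have a median of -0.29 (-0.16 without WT replicate 2), and the mitochondrial ribosomal proteins one of 0.11 (0.32 without KO replicate 1).

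The embryos also differed in markers of their tissues. Visceral endoderm markers, the outer layer of the egg cylinder, were lower in KO by sign in 11 of 12, with a summed level of 780 and 2049 CPM in WT and 288 and 361 CPM in KO. Markers of trophoblast giant cells and the ectoplacental cone were positive in 6 of 6 tested, of 8 listed, with 376 and 577 CPM in WT and 1836 and 1044 CPM in KO, and Tpbpa and Prl2c2 were at 0 in every library. Epiblast markers summed to 2868 and 2809 CPM in WT and 2099 and 3211 CPM in KO, and extraembryonic ectoderm markers to 841 and 1050 CPM in WT and 1640 and 1093 CPM in KO. Of 10 epiblast markers, 4 were positive and 6 negative, and 3 were lower at an unadjusted edgeR p under 0.05 (3.08% of all genes). Of 10 extraembryonic ectoderm markers, 6 were positive and 4 negative, and 2 were higher at that level (4.74%). Parietal endoderm markers summed to 239 and 582 CPM in WT and 358 and 432 CPM in KO. Of these 6 markers, 4 were positive and 2 negative, and 2 were higher at an unadjusted edgeR p under 0.05 (4.74%). Both KO embryos lay above both WT embryos in 3 of them (50%, against 19.4% of all genes tested) and below in 0 (against 18.8%). The 4 tested of 8 markers of maternal decidua were all negative, with summed levels of at most 23.5 CPM. Blood markers summed to between 4.16 and 5.71 CPM, with Hbb-bs and Lyz2 at 0. In KO replicates 1 and 2, Rpl10l had 140 and 269 CPM, Rpl39l had 49.7 and 52.0 CPM, and the giant cell markers summed to 1836 and 1044 CPM. The part of tissue makeup in the levels of the ribosomal protein genes was not tested.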

How the data were processed

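Per the labels' protocols, polyadenylated RNA of 4 single embryos (2 WT, 2 KO) went through Smart-Seq v4 amplification and was sequenced in pairs of 150-base reads. The authors deposited whole-number read counts per gene, not normalised. TopHat, Cufflinks and mm10 are named, without version, per the submitters' processing notes. For the read counter, its treatment of strand and its gene models, nothing is given in the sources used. Symbols and positions came from GENCODE M21, which held 46574 of the 47885 identifiers (816 had no Ensembl identifier and 495 were not found).

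KO was compared with WT by the edgeR (version 4.0.16, R 4.3.3) quasi-likelihood test on all genes (filterByExpr with minimum count 10 and minimum total 15, TMM scaling, robust dispersion). P-values were adjusted by Benjamini-Hochberg over 15563 genes, with a threshold of 0.05. Standard errors were derived from the size of the fold change and the F statistic of the test. CPM of single genes use TMM-scaled library sizes, and shares use library totals. A single count equalled between 0.0358 and 0.0589 CPM. Log2 ratios between 2 libraries used a pseudocount of 0.5 CPM. P-values and standard errors rest on the spread between the 2 embryos of each group, moderated by information shared across all genes tested. They therefore do not measure a gene's own spread alone.

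Members and gene lists were chosen with earlier results of these data known. Genes were named by a rule: every copy with its parent, the P stalk, Rpl5 and Rpl11, X-linked members, the 8 members per direction with the smallest p, the 5 highest and 5 lowest per coding kilobase (coding length in place of exon length), and up to 3 per related list. Some genes taken by the rule enter the counts and are not reported here by name. Larp1 and Mtor were named outside that rule, with their values known. The fit was also run on simulated counts with known changes, and the outcome is not reported here. Alternatives were DESeq2 (version 1.42.0), limma-voom (limma version 3.58.1), other scalings and filters, a replicate block, removal of GC and length trends, addition of pseudogene counts and leaving out each embryo.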

Additional observations from a re-analysis of the deposited data

How the results depend on the processing

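The number of members called higher was 1, Rpl10l in each case, instead of 0 with DESeq2, with no low-count filter, with the replicate block, and with GC and length trends removed together with the replicate block. It ran from 0 to 1 when each embryo was left out, and was 1 without KO replicate 1. Over all genes, the calls higher and lower numbered 150 and 90 of 15563 with DESeq2, 157 and 101 of 25350 with no low-count filter, 112 and 55 of 15563 with trends removed and the block, and 133 and 209 of 16786 without KO replicate 1. No setting called a member lower. The adjusted p of Rpl10l was 0.0405 with the replicate block and 0.0228 with trends removed as well. Those samples share only a number: differences between same-numbered embryos correlated at 0.329 over 15563 genes and at 0.0406 over the members, and the labels tie no numbers together. The block moved the calls over all genes from 0 higher and 0 lower to 52 and 19.

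The median log2 fold change of the members ran from -0.13 to 0.05 when each embryo was left out and was -0.10 with the replicate block. Members with both KO embryos above both WT embryos numbered 5 on library totals and 11 with trends removed, and 12 to 34 when each embryo was left out. Those below numbered 23 to 51 when each embryo was left out, where 1 embryo is set against 2 and groups separate more easily. Shares over all genes are not given for these settings, so these counts are not a result about the members. The shares of counts moved by less than the spread between embryos under every alternative tried for them.

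With GC and length trends removed, without and with the replicate block, medians of related lists moved: other TOP messages to -0.20 and -0.21, RNA polymerase I to 0.05 and 0.03, ribosome biogenesis to 0.06 and 0.07, the 5S particle to -0.18 and -0.18, and ribosomal proteins outside the symbol rule to -0.34 and -0.34. The control of TOP messages had 0.04 with trends removed, and the other TOP messages -0.26 on library totals. When each embryo was left out, medians ran from -0.31 to -0.16 for other TOP messages, -0.12 to 0.09 for RNA polymerase I, -0.07 to 0.06 for ribosome biogenesis, 0.07 to 0.65 for the chaperones, -0.26 to -0.05 for ribosomal proteins outside the symbol rule, -0.16 to 0.09 for the control of TOP messages and 0.07 to 0.32 for mitochondrial ribosomal proteins. Of the mitochondrial set, DESeq2, no low-count filter and the replicate block called 2 genes each, trends removed with the block 3, and leaving out each embryo 0 to 1, beside the calls over all genes given for these settings. The other related lists had 0 calls under every setting.

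Signs also turned for single members. With trends removed, with or without the block, Rpl39 had 0.14, Rps27 had 0.05 and Rplp1 had -0.01. Rplp2 had 0.01 on library totals. Rpl7l1 had 0.00 with DESeq2, limma-voom and RLE scaling, 0.03 on library totals, 0.01 with no filter, 0.08 with trends removed and 0.07 with the block added. Rpl3l had -0.05 with limma-voom, -0.11 with the block and -0.28 with trends removed and the block. When each embryo was left out, signs turned within these ranges: Rpl13 -0.10 to 0.06, Rpl22 -0.26 to 0.14, Rpl23a -0.76 to 0.07, Rpl24 -1.71 to 1.14, Rpl3 -0.53 to 0.12, Rpl36a -0.05 to 0.51, Rpl39 -0.22 to 0.15, Rpl3l -3.35 to 2.15, Rpl7l1 -0.29 to 0.32, Rplp0 -0.45 to 0.35, Rplp1 -0.11 to 0.18, Rplp2 -0.13 to 0.13, Rps27 -0.65 to 0.14, Rps27l -0.08 to 0.27, Rps27rt -1.28 to 0.22 and Rps4x -0.00 to 0.19. The cause was not tested.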

Other observations

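Rps4l, a copy of the X-linked Rps4x that the annotation lists as a transcribed processed pseudogene and that therefore was not a member, was present at the level of a regular ribosomal protein gene. It had 1002 and 1231 CPM in WT and 1259 and 1864 CPM in KO, and both KO embryos lay above both WT embryos. Its log2 fold change was 0.48 (standard error 0.29, edgeR adjusted p = 0.769). Rps4l made up 37.3% and 39.1% of the counts of the pair with Rps4x in WT, and 40.5% and 49% in KO. Its transcript is identical to the Rps4x coding sequence at 80.1% of 788 aligned bases, with a longest identical run of 35 bases, against reads of 150 bases.

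The proteins of the mitochondrial ribosome, a separate machine that translates the genes of the organelle, had the opposite balance of signs from the cytoplasmic set. Of 77 genes tested, 49 had a positive and 28 a negative log2 fold change, with a median of 0.11, which was 0.32 without KO replicate 1. Both KO embryos lay above both WT embryos in 29 (37.7%, against 19.4% of all genes tested) and below in 12 (15.6%, against 18.8%). Mrpl43, of the large mitochondrial subunit, had 140 and 153 CPM in WT and 354 and 529 CPM in KO (log2 fold change 1.59, standard error 0.32, edgeR adjusted p = 0.274). Mrpl46 and Mrpl14 had log2 fold changes of 1.32 and 1.19. At an unadjusted edgeR p under 0.05, 6 of the 77 genes were higher and 1 lower, against 4.74% and 3.08% of all genes tested. None passed the edgeR threshold, which 0% of all genes tested passed. DESeq2 called 2 of the mitochondrial set, against 0.964% of all genes higher and 0.578% lower. The difference between the cytoplasmic and mitochondrial sets was not tested.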
